A study of Mus musculus with 14 samples.

Results

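The elements described here are stretches of open chromatin that were called in rods and in Nrl-null photoreceptors of the adult mouse retina but not in double-sorted green cones. An element of the ATAC-seq count table was taken when it overlapped by at least 1 bp a window of 100 bp on either side of a peak summit in the rod list and in the Nrl-null list, and no such window in the double-sorted green cone list. The rule chose 3774 of the 53204 elements, each 200 bp long. The elements were thus chosen by the peak calls of these 3 lists, and the double-sorted levels are given only as a description.

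The series holds 14 libraries from flow-sorted photoreceptors of C57BL/6 mice at 8 weeks of age, 8 for ATAC-seq and 6 for RNA-seq. Rods came from Nrl-eGFP mice and were sorted once (2 ATAC-seq and 3 RNA-seq libraries). Nrl-null photoreceptors came from Nrl-eGFP;NrlKO mice, were sorted once (2 and 3 libraries) and are labelled blue cones. Green cones came from Opn1mw-GFP mice and were sorted once (2 ATAC-seq libraries) or a second time (2 ATAC-seq libraries). Rods and Nrl-null photoreceptors thus share the Nrl-eGFP reporter and the single sort, both of which the double-sorted green cones lack, so that cell type, reporter line, sorting and depth cannot be told apart in the contrast that the rule uses. The double-sorted libraries held the fewest ATAC-seq counts, and all 8 ranged from 1062403 to 5770075.

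ATAC-seq uses a transposase that inserts adapters where DNA is not packed around nucleosomes, and so marks promoters, enhancers and other regulatory elements. NRL is the transcription factor that sets rod identity, and photoreceptors that lack it take on the character of blue cones. CRX and OTX2 are homeodomain factors that bind such letters as CTAATCC and are found in both rods and cones, whereas NR2E3 works with NRL in rods. An element called in rods and in Nrl-null photoreceptors was therefore called with and without NRL.

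A set of 8 elements, taken from the extremes by p-value or level, shows some patterns found among the 3774. They are not typical, since 3416 of the 3774 were not called between rods and Nrl-null photoreceptors. Only 11 were called more open in Nrl-null photoreceptors. The 8 are printed from the plus strand of GRCm38 (mm10), 5′ to 3′, without any bases in RefSeq exons. The capitals mark letters of the motifs that were searched on both strands (listed with their shares further on), other than GATAA. The Nrl and Slc22a28 elements lie at gene starts, the Prkab1, Tnni1 and Runx1 elements were more open in rods than in Nrl-null photoreceptors, the Tgfbi and Slc22a8 elements were more open in Nrl-null photoreceptors, and the Gulo element had like levels in every group.
Nrl start site, chr14:55524253-55524381: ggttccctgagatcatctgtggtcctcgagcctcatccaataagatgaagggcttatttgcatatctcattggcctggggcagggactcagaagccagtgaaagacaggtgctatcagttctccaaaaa
Slc22a28 start site, chr19:8132307-8132506: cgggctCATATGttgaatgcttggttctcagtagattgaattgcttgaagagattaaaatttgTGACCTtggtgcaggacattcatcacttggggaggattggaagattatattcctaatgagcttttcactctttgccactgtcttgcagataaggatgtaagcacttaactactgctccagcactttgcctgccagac
Prkab1 intron, chr5:116017511-116017710: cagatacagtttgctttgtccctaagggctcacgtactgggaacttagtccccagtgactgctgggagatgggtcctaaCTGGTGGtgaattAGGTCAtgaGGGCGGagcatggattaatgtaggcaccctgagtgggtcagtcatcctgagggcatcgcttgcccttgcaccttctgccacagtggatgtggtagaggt
upstream of Tnni1, chr1:135793415-135793614: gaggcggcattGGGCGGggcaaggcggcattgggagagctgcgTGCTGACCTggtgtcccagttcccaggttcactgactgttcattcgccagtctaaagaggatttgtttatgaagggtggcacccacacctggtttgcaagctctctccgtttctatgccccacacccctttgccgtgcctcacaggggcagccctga
upstream of Runx1, chr16:93021222-93021421: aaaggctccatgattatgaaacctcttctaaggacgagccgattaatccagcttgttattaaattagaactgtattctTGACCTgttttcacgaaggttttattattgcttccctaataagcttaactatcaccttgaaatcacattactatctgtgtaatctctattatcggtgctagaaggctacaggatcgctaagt
upstream of Tgfbi, chr13:56589473-56589672: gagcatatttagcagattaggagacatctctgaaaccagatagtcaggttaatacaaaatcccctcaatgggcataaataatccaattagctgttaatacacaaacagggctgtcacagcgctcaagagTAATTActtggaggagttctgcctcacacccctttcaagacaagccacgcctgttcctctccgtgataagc
upstream of Slc22a8, chr19:8566162-8566361: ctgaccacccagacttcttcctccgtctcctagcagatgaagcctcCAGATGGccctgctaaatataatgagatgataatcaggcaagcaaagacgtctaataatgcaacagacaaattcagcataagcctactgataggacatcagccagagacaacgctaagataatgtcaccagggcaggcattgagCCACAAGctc
Gulo intron, chr14:66000943-66001142: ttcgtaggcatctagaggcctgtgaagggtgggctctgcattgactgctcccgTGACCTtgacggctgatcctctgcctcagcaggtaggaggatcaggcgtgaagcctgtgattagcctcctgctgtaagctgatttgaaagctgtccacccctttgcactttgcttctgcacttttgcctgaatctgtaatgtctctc

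The elements were weaker than those called in all 3 lists. The median −log10 q of their peak was 70.0 in the rod list and 29.9 in the Nrl-null list, against 229 and 126 for the 21863 elements in all 3 lists. Their median level, as counts scaled to library size (CPM, with TMM factors), was 10.9 and 11.3 in the rod libraries and 7.87 and 8.17 in the Nrl-null libraries. The single-sorted green cones had medians of 7.33 and 6.38 CPM, and the double-sorted green cones had 4.66 and 5.39 CPM. Elements in all 3 lists had medians between 20.2 and 28.3 CPM in the 8 libraries.

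**Figure D1:**
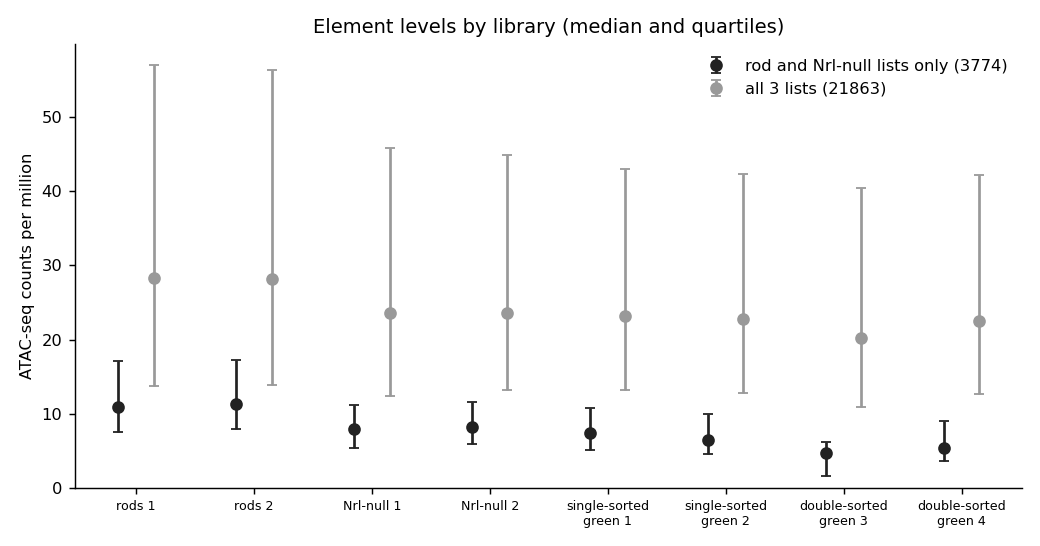
Median ATAC-seq level (points) and quartiles (bars) in CPM for each of the 8 libraries, for the 3774 elements in the rod and Nrl-null lists only and the 21863 elements in all 3 lists. The first set runs from medians of 10.9 and 11.3 in rods to 4.66 and 5.39 in double-sorted green cones.

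Most of these elements had reads in the double-sorted libraries, but elements without reads were more frequent than among all elements. No reads were counted at 11.8% of them in replicate 3 and at 7.45% in replicate 4, and 70 elements had 0 counts in both. The shares were 5.02% and 4.89% of all elements, and 0.567% and 0.247% of those in all 3 lists. Both double-sorted libraries lay below all 4 rod and Nrl-null libraries at 1729 elements (45.8%), against 14.9% of all elements and 20.5% of those in all 3 lists. The rule used this contrast, which bears on all of these shares. At 627 elements (16.6%) the mean double-sorted level was at or above the mean Nrl-null level, a share that was not taken over all elements. Elements without a double-sorted summit window thus spanned a range of double-sorted levels.

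The rule was also met next to double-sorted peaks. Of the 3774 elements, 661 (17.5%) lay inside a double-sorted peak interval although no summit window reached them. The share was alike in the other classes without a double-sorted window, at 17.5% in the Nrl-null list only and 13.8% in the rod list only. It was 73.5% of all elements. The 661 elements were richer in promoters (28.6%) than the other 3113 (10.8%), and their median GC content was 64.5% against 50%. Just inside the rule, the nearest double-sorted summit was 200 bp from the middle of elements near Cstdc2 and Ptbp3 and 201 bp from one near Mef2a. Just outside it, the distance was 199 bp near Marveld2 and 198 bp near Mcat and Trim44. The double-sorted levels just inside the rule were 3.11 and 11.7 CPM near Cstdc2, 3.11 and 6.29 near Ptbp3 and 12.4 and 11.7 near Mef2a. Just outside they were 10.9 and 8.98 CPM near Marveld2, 12.4 and 8.98 near Mcat and 21.8 and 17.1 near Trim44.

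The 5 elements with the highest level in their lowest rod or Nrl-null library were all of this kind. They lay near Rnf44, Hexim2, Inka2, Gulo and Lcorl, with a double-sorted summit 211 to 332 bp away. The Gulo element, printed above, had 46.4 and 52.5 CPM in rods, 48.4 and 48.6 in Nrl-null photoreceptors, 48.1 and 48.8 in single-sorted and 56.0 and 39.5 in the double-sorted group. The groups overlapped, and no tested comparison called the element. Gulo encodes an enzyme of vitamin C synthesis, and its RNA was 118, 245 and 218 normalised counts in rods and 11582, 12225 and 13171 in Nrl-null photoreceptors (log2 fold change −6.02 ± 0.24 SE, edgeR adjusted p = 2e-09).

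The remaining elements were mostly far from double-sorted summits. The nearest summit was between 5 and 50 kb away for 2008 elements and 50 kb or more away for 217. In the first of these bins the median double-sorted levels were 3.11 and 3.59 CPM, against 10.0 and 10.5 CPM in rods and 7.04 and 7.49 in Nrl-null photoreceptors.

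**Figure D2:**
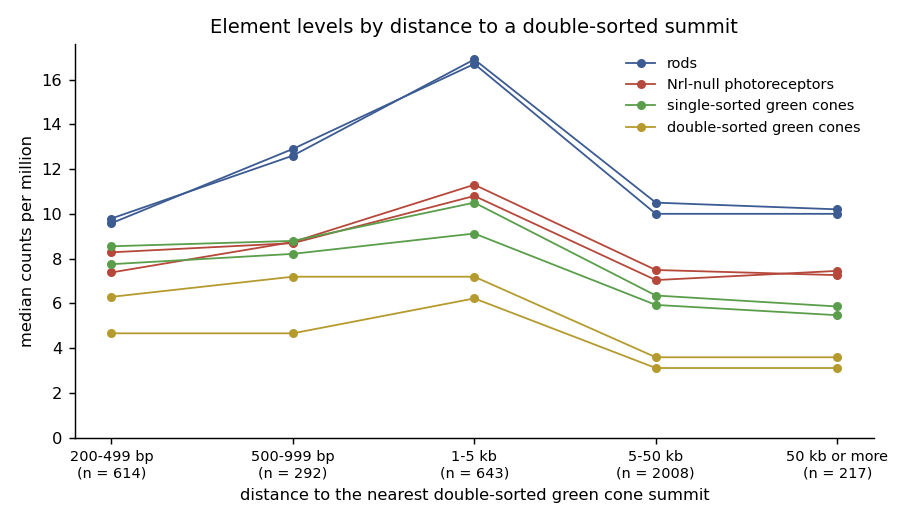
Median ATAC-seq level in CPM (one line per library) by distance from the middle of the element to the nearest double-sorted green cone summit, with the number of elements in each bin. The double-sorted lines lie lowest in every bin, at 4.66 and 6.29 in the nearest and 3.11 and 3.59 in the farthest.

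By position, 1915 elements (50.7%) lay in introns, 1419 (37.6%) outside RefSeq transcripts and 524 (13.9%) at promoters, taken as 1000 bp upstream to 100 bp downstream of a start site. Promoters made up 25.1% of all elements and 46.1% of those in all 3 lists. Coding exons held 160 elements, 5′ UTRs 159, 3′ UTRs 79 and non-coding exons 42. The elements were nearest to the start sites of 3000 genes, of which 2417 had only 1. On the autosomes they made up 4.70% (chromosome 18) to 10.9% (chromosome 19) of all elements of a chromosome.

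On the Y chromosome, 5 of 13 elements met the rule. Of these, 3 lay at Eif2s3y and Ddx3y, genes of the male-specific region. At the Ddx3y element the level was 17.5 and 11.7 CPM in rods, 10.8 and 8.63 in Nrl-null photoreceptors and 9.28 and 10.9 in single-sorted green cones. It was 0 in double-sorted replicate 3 and 8.98 in replicate 4. Replicate 3 had 0 counts at all 5 elements near Eif2s3y, Uty and Ddx3y, whereas the other 7 libraries had 30 to 246 in sum. Per the study's sample sheet each library pooled several mice, and only the double-sorted pools, both with males, included a female. The part of the mice's sex in the choice of these elements was not tested.

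Motif content was set beside that of all elements. CTAATCC, the CRX and OTX2 letters, occurred in 7.42% of the elements and in 7.61% of all elements. The nuclear receptor letters AGGTCA occurred in 14.1% against 14.9%, TGCTGAC, a MAF-family sequence that NRL can bind, in 3.60% against 3.98%, and TAATTA in 5.17% against 4.71%. CATATG occurred in 2.52% against 2.50% and CTAAGCC in 4.82% against 5.61%. The widest gaps were for GGGCGG, the GC box of SP and KLF factors, at 19.1% against 26.8%, and for CCACNAG, a part of the CTCF sequence, at 22.2% against 16.8%. CCGGAAG, the ETS letters, stood at 2.68% against 5.55%, GCGCATG at 1.56% against 2.52%, TGANTCA at 4.45% against 6.28%, CCATCTG at 5.83% against 6.63% and GATAA at 23.8% against 21.6%. Elements in the Nrl-null list only had GGGCGG at 18.5%, CCACNAG at 18.1% and CCGGAAG at 2.33%. Those in the rod list only had them at 11.5%, 13.9% and 1.38%. Low GGGCGG and CCGGAAG shares were thus not particular to these elements. Promoters were also fewer among them (13.9% against 25.1%), and the part of this in the gaps was not tested. AGGTCA shares letters with TGCTGAC where they run together, as in the element upstream of Tnni1. These shares are descriptions of letters in the windows.

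Single-sorted green cones were not used by the rule and gave a separate view of the same elements. A single-sorted summit window overlapped 2966 of the 3774 elements (78.6%), against 98.9% of elements in all 3 lists, 38.9% of the 3043 in the rod list only and 80.2% of all elements. At the 808 elements without one, the median level was 4.4 and 4.1 CPM in single-sorted and 3.11 and 3.59 CPM in double-sorted green cones, against 8.33 and 8.85 CPM in rods. Both single-sorted libraries lay below all 4 rod and Nrl-null libraries at 942 elements (25%, against 10.2% of all elements and 16.7% of those in all 3 lists) and above them at 87 (2.31%, against 15.4% and 4.92%). The rule required rod and Nrl-null peaks and no double-sorted green cone window, which bears on these shares. The single-sorted libraries carried reads at rod elements: at an element near Gnat1, the rod transducin gene, the counts were 603 and 592 in rods, 2 and 2 in Nrl-null photoreceptors, 174 and 61 in single-sorted and 2 and 6 in double-sorted green cones. Over the elements in the rod list only, medians were 5.13 and 4.56 CPM in single-sorted against 3.11 and 3.59 in double-sorted green cones and 3.31 and 3.18 in Nrl-null photoreceptors. The part of this rod signal in the single-sorted results was not tested. The study's sample sheet places single-sorted replicate 1 in the Nrl-null line, unlike its label. That library had 176 counts at an Nrl element with 0 counts in both Nrl-null libraries.

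Against Nrl-null photoreceptors, single-sorted green cones differed at few of these elements. Of 3715 tested, 35 were lower and 1 was higher (edgeR, more than a 2-fold change, adjusted p below 0.1), or 0.942% and 0.0269%. Among all 50605 elements tested, 1.03% were lower and 1.83% higher. Among elements in all 3 lists 0.115% were lower and 0.105% higher, and among elements in the Nrl-null list only 6.1% were lower. The share lower was near that of all elements. The rule required an Nrl-null peak and no double-sorted green cone window, whereas elements in all 3 lists held such a window. This bears on both directions, so that nothing is read from the gaps between these shares. The median log2 fold change was −0.14 (−0.01 over all elements). The number lower was 11 without Nrl-null replicate 2, 59 without single-sorted replicate 1, 21 without single-sorted replicate 2, 3 in DESeq2 and 17 with the study's read totals as library sizes.

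The element 20013 bp upstream of Tgfbi, which encodes an extracellular matrix protein, had 26.9 and 30.9 CPM in Nrl-null photoreceptors, 6.66 and 5.84 in rods, 3.91 and 0.912 in single-sorted and 3.11 and 0.898 in double-sorted green cones. Nrl-null photoreceptors stood above every other library. Single-sorted green cones were lower by a log2 fold change of −3.37 ± 0.39 (SE, edgeR adjusted p = 4.94e-05), and rods were lower than Nrl-null photoreceptors as well (−2.23 ± 0.27, adjusted p = 5.65e-05). Tgfbi itself was listed at 0 normalised counts in 5 of the 6 RNA libraries. The element 24992 bp upstream of Slc22a8, an organic anion transporter gene, had 33.5 and 27.5 CPM in Nrl-null photoreceptors, 10.0 and 8.28 in rods, 4.88 and 3.19 in single-sorted and 0 and 3.59 in double-sorted green cones. It was lower in single-sorted green cones than in Nrl-null photoreceptors (−2.83 ± 0.34, edgeR adjusted p = 2.23e-04) and had a single-sorted summit window all the same.

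A further 3 elements were lower in single-sorted green cones: one in an Osbpl6 intron nearest to Prkra (−2.66 ± 0.34), one upstream of Lrpprc (−2.52 ± 0.37) and one upstream of Nr3c1, the glucocorticoid receptor gene (−2.72 ± 0.42). None of these had a single-sorted window. The 1 element higher in single-sorted green cones lay in an intron of Prkab1, a subunit of the AMP-activated kinase. It had 93.7 and 106 CPM in rods, 7.45 and 10.9 in Nrl-null photoreceptors, 38.1 and 28.3 in single-sorted and 7.77 and 3.59 in the double-sorted group. The single-sorted level lay between those of rods and the other groups (1.82 ± 0.28 over Nrl-null, edgeR adjusted p = 0.0357), and the element was not called without single-sorted replicate 1 (1.58), without Nrl-null replicate 1 (1.63), in DESeq2 (1.83) or with the study's read totals as library sizes (1.43).

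**Figure D3:**
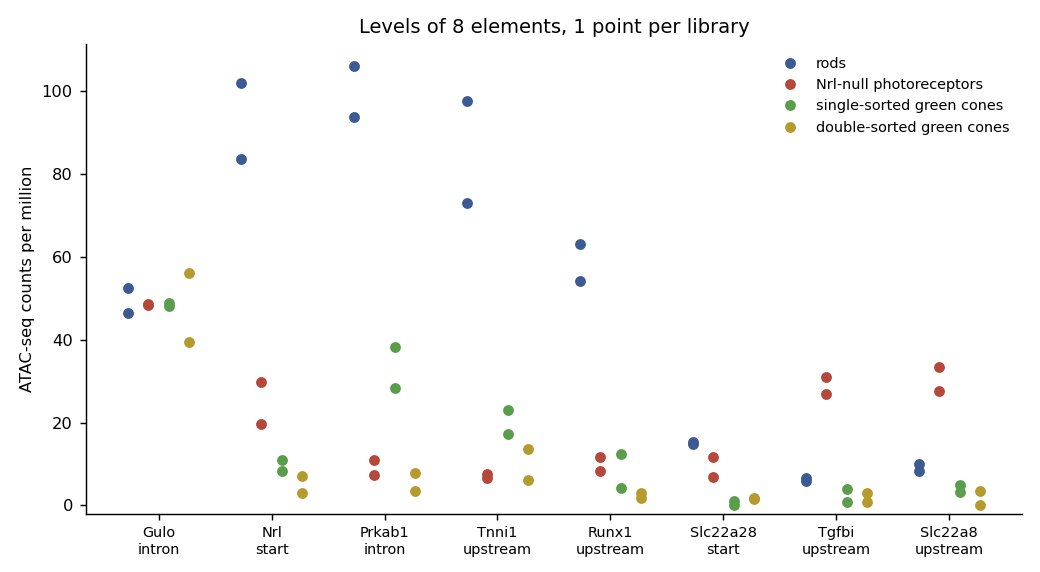
ATAC-seq level in CPM of 8 elements (x axis, by nearest or host gene) in each of the 8 libraries, 1 point per library, coloured by group. Rods stand highest at the Nrl, Prkab1, Tnni1 and Runx1 elements, Nrl-null photoreceptors at the Tgfbi and Slc22a8 elements, and the groups overlap at the Gulo element.

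Against rods, the elements were more often lower in single-sorted green cones. Of 3763 tested, 391 (10.4%) were lower and 4 (0.106%) higher, against 2.93% and 21.4% of all 50593 elements tested. The rule required a rod peak and no double-sorted green cone window, which bears on both directions. Elements in all 3 lists also required a rod peak but held a double-sorted window. Of these, 1.59% were lower and 1.64% higher, and among elements in the rod list only 22.9% were lower. Nothing is therefore read from the gaps between these shares. The median log2 fold change was −0.67 (0.09 over all elements). DESeq2 called 75 lower and none (0) higher, and with the study's read totals as library sizes 2166 were lower and none (0) higher. Of the 391, 127 had no single-sorted window.

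The start of Nrl carried the strongest of these differences by p-value. The element, whose middle lies 30 bp upstream of the start site, had 83.5 and 102 CPM in rods, 29.8 and 19.7 in Nrl-null photoreceptors, 11 and 8.21 in single-sorted and 3.11 and 7.19 in the double-sorted group. The order of the groups was rods, Nrl-null photoreceptors and then green cones, without overlap between these 3. It was lower in single-sorted green cones than in rods (−3.18 ± 0.19, edgeR adjusted p = 1.22e-09) and higher in rods than in Nrl-null photoreceptors (1.95 ± 0.17, adjusted p = 3.2e-06). Rods and Nrl-null photoreceptors both carry the Nrl-eGFP reporter, which is driven by Nrl promoter sequence, so that reads of the reporter and of the gene cannot be told apart. A second element 1895 bp upstream of Nrl had 55.6 and 60.4 CPM in rods, 24.8 and 24.5 in Nrl-null photoreceptors, 23.0 and 19.6 in single-sorted and 3.11 and 7.19 in double-sorted green cones.

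At the start of Slc22a28, another transporter gene of this family, levels were 15.4 and 14.7 CPM in rods, 11.6 and 6.81 in Nrl-null photoreceptors, 0.977 and 0 in single-sorted and 1.55 and 1.80 in double-sorted green cones. All 4 green cone libraries lay below the other 4, as they did at 692 of the 3774 elements (18.3%). The share was 5.29% of all elements and 8.1% of those in all 3 lists. The rule asked for rod and Nrl-null peaks and no double-sorted window, which bears on this share. The single-sorted green cones were lower than rods (−4.48 ± 0.57, edgeR adjusted p = 1.4e-05) and than Nrl-null photoreceptors (−3.79 ± 0.75, adjusted p = 0.0088). Slc22a28 RNA was 31.0, 85.2 and 59.1 normalised counts in rods and 0, 0 and 1.67 in Nrl-null photoreceptors. The element upstream of Runx1 (63.1 and 54.2 CPM in rods, 12.5 and 4.10 in single-sorted green cones) was lower than in rods as well. So was the element in a Cep85 intron (34.8 and 40.1, 7.57 and 2.74). Nrl-null levels were also below those of rods, at 8.28 and 11.8 CPM near Runx1 and 6.62 and 3.18 in the Cep85 intron. Neither element was called between single-sorted green cones and Nrl-null photoreceptors. The 4 elements higher in single-sorted green cones than in rods lay near Rps24, Tdrd3, Srrm4 and Dnajb6, and all 4 were inside a double-sorted peak interval.

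Rods and Nrl-null photoreceptors differed at a minority of the elements, although both lists held all of them. Of 3763 tested, 347 (9.22%) were more open in rods and 11 (0.292%) in Nrl-null photoreceptors, against 6.38% and 21.0% of all 49364 elements tested. The rule required a peak in both groups, and the lowest −log10 q was 36 in the rod list and 15.3 in the Nrl-null list, which bears on both directions, so that nothing is read from these shares. Elements in all 3 lists gave 4.94% and 3.03%. The median log2 fold change was 0.50 (−0.07 over all elements). DESeq2 called 127 and 3, and with the study's read totals as library sizes 493 and 0 were called.

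**Figure D4:**
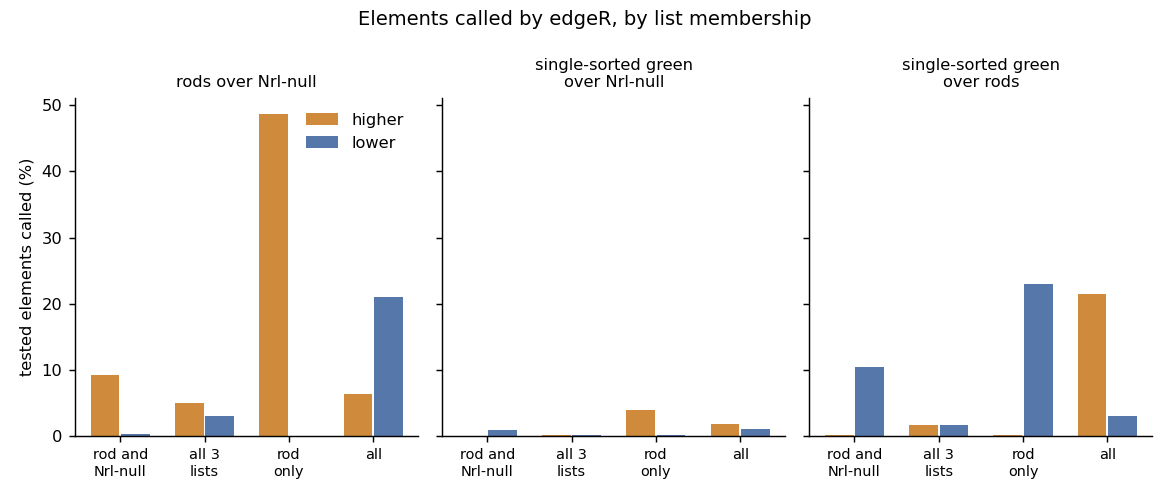
Percent of tested elements called higher (orange) or lower (blue) by edgeR in the comparisons of rods with Nrl-null photoreceptors and of single-sorted green cones with each, for elements in the rod and Nrl-null lists, in all 3 lists, in the rod list only, and for all elements. The elements in the rod and Nrl-null lists were called higher in rods at 9.22% and lower in single-sorted green cones than in rods at 10.4%.

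Among the elements more open in rods with the lowest p-values were the Prkab1 intron described above (3.36 ± 0.18 SE, edgeR adjusted p = 2.83e-13) and the element upstream of Tnni1, a troponin gene, with 72.9 and 97.5 CPM in rods and 6.62 and 7.49 in Nrl-null photoreceptors (3.56 ± 0.21). Others lay in an intron of Gnb1, which encodes the transducin beta subunit of rods (3.14 ± 0.20), and in LOC666331 (2.97 ± 0.21). At these 4 elements the rod libraries stood above the other 6.

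More open in Nrl-null photoreceptors were, after the Tgfbi element, one in an intron of Cltb, a clathrin light chain gene, with 21.9 and 27.9 CPM against 4.79 and 7.53 in rods (−2.04 ± 0.29, edgeR adjusted p = 7.61e-04). Elements upstream of Scmh1 (−1.96 ± 0.31) and Slc22a8 (−1.74 ± 0.25) and in an intron of Disp1 (−1.73 ± 0.27) followed. With the study's read totals as library sizes none (0) of these was called, nor was the Tgfbi element. The Slc22a8 and Disp1 elements were not called in DESeq2 either. At the Disp1 element the log2 fold change was −1.4 without rod replicate 1 and −1.43 without Nrl-null replicate 2. Cltb RNA was 66.5, 87.5 and 162 normalised counts in rods and 17077, 20076 and 20267 in Nrl-null photoreceptors, and Disp1 RNA was likewise higher in Nrl-null photoreceptors (−2.95 ± 0.25).

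Elements near rod genes were given by the gene lists. Of 21 genes of rod phototransduction, 9 were nearest to 15 of the elements, out of 97 elements nearest to these genes in all. Of the 15, 5 were more open in rods and none (0) in Nrl-null photoreceptors, beside 9.22% and 0.292% of the 3763 tested and 6.38% and 21.0% of all elements. At the start of Cngb1, a subunit of the rod cyclic nucleotide-gated channel, levels were 58.7 and 57.2 CPM in rods, 21.5 and 22.5 in Nrl-null photoreceptors, 27.1 and 15.5 in single-sorted and 12.4 and 8.98 in double-sorted green cones (rods over Nrl-null 1.38 ± 0.17, edgeR adjusted p = 0.0201). In the 3′ UTR of Rcvrn, which encodes recoverin, they were 56.9 and 60.1, 12.4 and 10.4, 20.5 and 17.8, and 6.22 and 5.39 CPM (2.37 ± 0.20). Rods stood highest at both.

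Of 15 genes of cone phototransduction, 4 were nearest to 4 of the 80 elements near these genes. None (0) of the 4 elements was called between rods and Nrl-null photoreceptors. The one nearest to Pde6h, a cone phosphodiesterase subunit gene, lay 99136 bp from its start site. It had 7.08 and 7.91 CPM in rods, 4.97 and 3.63 in Nrl-null photoreceptors and 0.977 and 1.82 in single-sorted green cones. Pde6h RNA was higher in Nrl-null photoreceptors (−6.71). Of these 4 genes, Grk1 and Kcnv2 had RNA called higher in rods (1.91 and 1.23), and 2 had RNA called higher in Nrl-null photoreceptors. Grk1 was also in the rod phototransduction list. Of all 15 genes, 12 were called higher in Nrl-null photoreceptors and 2 in rods. Of 9 cone transcription factors, Thrb and Isl2 were nearest to 5 of the 68 elements near these genes. Of these 5, 1 was more open in rods than in Nrl-null photoreceptors and none (0) less. It lay 3297 bp upstream of Thrb, the thyroid hormone receptor beta gene needed for green opsin. Its level was 51.9 and 49.7 CPM in rods, 12.8 and 19.1 in Nrl-null photoreceptors, 17.8 and 22.3 in single-sorted and 17.1 and 14.4 in double-sorted green cones.

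Of 18 outer segment genes, 7 were nearest to 9 of the 108 elements near these genes. Of the 9, 1, near Prph2, was more open in rods and none (0) in Nrl-null photoreceptors. The one near Prph2, a protein of the disc rim, had 82.1 and 77.8 CPM in rods, 11.2 and 20.4 in Nrl-null photoreceptors, 24.4 and 17.3 in single-sorted and 1.55 and 5.39 in double-sorted green cones (rods over Nrl-null 2.23 ± 0.18, edgeR adjusted p = 1.91e-07). Of 20 glycolysis genes, 8 were nearest to 14 of the 89 elements near these genes, and the 1 that rose in rods lay upstream of Ldha, a lactate dehydrogenase gene (37.3 and 35.8 against 8.69 and 9.76 CPM). Of 38 genes of the nuclear lamina and chromatin, 11 were nearest to 13 of the 164 elements near these genes, with 2 more open in rods, beside the 9.22% and 6.38% above. One of these lay at the start of Dnmt3a, a DNA methyltransferase gene, inside a double-sorted peak interval (52.5 and 50.5 against 18.2 and 13.8 CPM). Of the marker lists of other cell types, bipolar cell genes were nearest to 6 of the 56 elements near them. Amacrine cell genes were nearest to 3 of 26, with 1 of each list more open in rods. Müller glia genes were nearest to 3 of 28, ganglion cell genes to 1 of 13 and retinal pigment epithelium genes to 1 of 16, none (0) of them called. None (0) was nearest to a gene of the microglia, horizontal cell or endothelial and pericyte lists, which had only 15, 21 and 11 elements near them. The rule chose 3774 of all 53204 elements, so that nothing is read from counts this small.

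RNA of the nearest genes was compared between rods and Nrl-null photoreceptors. The deleted gene Nrl had 13562, 19169 and 16836 normalised counts in rods and 762, 881 and 548 in Nrl-null photoreceptors (4.48 ± 0.20, edgeR adjusted p = 1.04e-08). Gnat1 was higher in rods (8.90) and Opn1sw, the blue cone pigment gene, in Nrl-null photoreceptors (−7.35). Summed bipolar cell marker counts were 10100 to 11200 in rods and 41900 to 47000 in Nrl-null photoreceptors, with 4 of 11 tested genes called higher there and 1 in rods. Summed stress gene counts were 14700 to 18100 and 28400 to 32600, with 6 of 17 tested genes called higher there and 2 in rods. Summed Müller glia marker counts were 2620 to 4250 in rods and 16200 to 20000 in Nrl-null photoreceptors, with 2 of 11 genes called higher there. Of these markers, Clu alone had mean counts of 1330 in rods and 15000 in Nrl-null photoreceptors. The median log2 fold change of the Müller glia list, rods over Nrl-null, was 0.35. Summed microglia marker counts were 324 to 405 and 814 to 2030, with 6 of 10 genes called higher in Nrl-null photoreceptors. The part of these marker and stress genes in the RNA differences was not tested.

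Of 2143 nearest genes tested, rods had more RNA of 228 (10.6%) and less of 236 (11%) than Nrl-null photoreceptors, against 6.88% and 13.3% of all 12327 genes tested. Next to the 347 elements more open in rods, 61 of 246 tested genes (24.8%) rose in rods and 19 (7.72%) fell. Next to the 11 elements more open in Nrl-null photoreceptors, 5 of 7 tested genes were higher there and none (0) in rods. At elements not called, the shares were 9.44% and 11.1%. Over 2757 elements with both values, Pearson's r between accessibility and RNA log2 fold changes was 0.202 and Spearman's coefficient was 0.173, a description across elements that share libraries and, in part, genes.

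**Figure D5:**
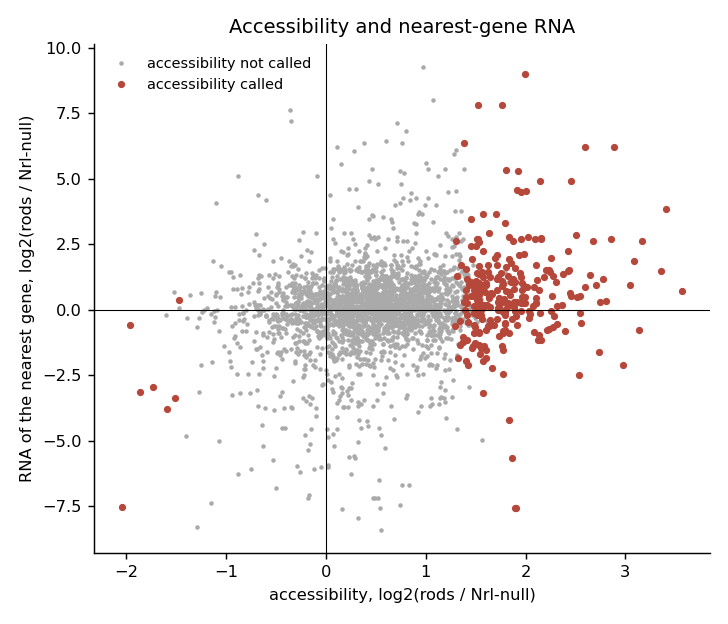
Accessibility log2 fold change (x axis) and RNA log2 fold change of the nearest gene (y axis), both rods over Nrl-null photoreceptors, for 2757 elements. Red points are elements called by edgeR for accessibility, and the relation across all points is loose (Pearson's r 0.202).

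Among nearest genes with the largest RNA differences, those higher in rods were Fndc1 (9.26 ± 0.51), Glt28d2 (8.99 ± 0.34), Scube2 (8.01 ± 0.63), Gnb1 (7.81 ± 0.22), Bst1 (7.63 ± 0.47) and Slc24a1, the rod sodium, calcium and potassium exchanger (7.13 ± 0.22). Those higher in Nrl-null photoreceptors were Ece1, an endothelin-converting enzyme (−7.96 ± 0.17), Pcdhac2 (−7.59 ± 0.33), Cltb (−7.53 ± 0.28), Cd8a (−7.46 ± 0.57), Epha8, an ephrin receptor gene (−7.39 ± 0.31), and Fezf1 (−7.19 ± 0.33). Slc24a1 RNA was 39422, 59396 and 50882 normalised counts in rods and 416, 339 and 293 in Nrl-null photoreceptors. Ece1 RNA was 66.5, 69.8 and 88.0 in rods and 19021, 18213 and 17589 in Nrl-null photoreceptors.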

How the data were processed

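Libraries were made from flow-sorted mouse photoreceptors by the authors. Per the submitters' processing notes and the study's methods, Bowtie2 2.2.3 placed the ATAC-seq reads on GRCm38 (mm10), short inserts were kept, and reproducible peaks were called per cell type with MACS2 2.1.0. The deposited peak lists hold a score, a fold enrichment (ratio), −log10 p (not used here) and −log10 q values and a summit offset. The deposited ATAC-seq table holds read counts per element of the merged lists, counted with bedtools 2.24.0 by the authors. The deposited RNA-seq table holds counts per gene from STAR 2.4.2a and HTSeq 0.6.1p1, of 18376770 to 26312895 per library, without rows that name no gene (41.3% to 49.2% of all reads counted).

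Members and gene lists were chosen with earlier results of these data known. Counts were tested across all elements or genes with edgeR 4.0.16 (R 4.3.3), using TMM factors, filterByExpr and glmTreat against a log2 fold change of 1, with Benjamini-Hochberg adjustment, adjusted p below 0.1 for ATAC-seq and 0.05 for RNA-seq, and only the groups compared. Of the 3774 elements, 3763, 3715 and 3763 passed the low-count filter in the rods over Nrl-null, single-sorted over Nrl-null and single-sorted over rods comparisons. The test was checked on simulated data. CPM and normalised counts used TMM factors. The nearest gene was that of the nearest RefSeq start site (26180 genes, 23165 matched to the RNA table by symbol and 1070 by synonym), and an element's place was that of its middle. Named elements were the 5 with the highest lowest level over rods and Nrl-null photoreceptors, the 5 with the lowest p in each direction of each test whose groups did not overlap, up to 3 per gene list by mean level, and 3 on either side of the summit limit. Named genes were those nearest to them, Nrl, and up to 6 in each direction by RNA fold change with a mean of 100 or more and no overlap. Replicates are separate libraries, and where separate animals are not stated p-values measure the spread between libraries. With 2 libraries a group no permutation test can reach 0.05. Replicate numbers did not pair the samples. DESeq2 1.42.0, RLE factors, no filter, a test against no change, a replicate block, the study's read totals, other member rules and leaving out each library were tried. One element given by the rule for named elements is not reported here.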

Additional observations from a re-analysis of the deposited data

How the results depend on the processing

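The number of elements stayed within 1.5 times of 3774 under summit windows of 50 and 150 bp, an overlap of 100 bp, exclusion of whole double-sorted peak intervals and a −log10 q of 5 or more. With a −log10 q of 36 or more in every list, chosen after seeing the data, it was 9221, with 96.6% holding a single-sorted window and 26.4% at promoters. The promoter share was 15.0% with the 100 bp overlap and 10.8% with whole intervals excluded, where the CTAATCC share was 8.38%. For rods over Nrl-null photoreceptors, higher and lower elements numbered 127 and 3 in DESeq2, 1468 and 143 against no change and 588 and 153 under the rule of 36, and lower elements numbered 0 with the study's read totals. For single-sorted green cones over Nrl-null photoreceptors they numbered 0 and 3 in DESeq2, 84 and 271 against no change and 0 and 17 with the read totals. For single-sorted green cones over rods they numbered 0 and 75 in DESeq2, 63 and 1752 against no change and 0 and 2166 with the read totals, and higher elements numbered 0 with whole intervals excluded and 41 under the rule of 36. Nearest genes against no change numbered 774 higher and 634 lower. The read totals moved the median log2 fold change of all elements from −0.07 to 0.51, from −0.01 to −0.38 and from 0.09 to −0.89 in these 3 ATAC-seq comparisons. The cause of the other changes was not tested. Leaving out 1 library gave 293 to 374 higher and 8 to 11 lower elements in the first comparison, 0 to 4 and 11 to 59 in the second, 2 to 3 and 295 to 547 in the third, and 208 to 279 and 209 to 247 genes. With the replicate block they numbered 348 and 11, 1 and 36, 4 and 397, and 233 and 235 genes. Same-numbered ATAC-seq samples had deviation correlations of 0.027, 0.014 and 0.034, so that they share only a number. Among named elements and genes, a call was lost in 36 and gained in 11 of these refits, and none (0) of the called ones changed direction. At these depths, the lowest double-sorted levels above 0 rest on single reads.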
